A study of Bos taurus with 6 samples.

Results

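The genes described are 10 intermediate filament genes of the bovine genome, namely the keratins KRT7, KRT8, KRT18 and KRT19, vimentin (VIM), desmin (DES), nestin (NES) and the lamins LMNA, LMNB1 and LMNB2. They were picked by name, and each of the 10 was found once among the 19163 genes of the count table and once among the 21357 genes of the TPM table. RNA-seq was carried out on F7, a Holstein Friesian line of bovine pluripotent stem cells from an in vitro fertilized embryo, so both groups come from 1 line. MC-F7 cells (also labelled 1M-F7) grew on mouse embryonic fibroblasts that had been treated with mitomycin C, which stops division but leaves the feeder cells alive, and MT-F7 cells grew on the same kind of fibroblasts fixed and killed with methanol. Both groups were kept in medium with recombinant human FGF and the WNT inhibitor IWR1, both were taken after 15 passages, and the dissociated cells that stayed afloat over gelatin were collected, a step that removes attaching feeder cells. Each group had 3 libraries. Whether the 3 came from separate cultures is not given in the sources used here, and the study's statistics section speaks of technical replicates without naming the assay, so that SDs and p values may cover technical spread only. The medium of MT-F7 was changed less often than that of MC-F7, so feeder and feeding schedule cannot be told apart.

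Intermediate filaments are the ropelike part of the cytoskeleton, and the type of filament protein a cell makes is a classical sign of its kind. Keratins assemble only as pairs of a type II protein (KRT7, KRT8) with a type I protein (KRT18, KRT19), and KRT8 with KRT18 is the pair of simple epithelia and of the early embryo. Vimentin builds the filaments of mesenchymal cells and of many cultured cells, nestin joins it in neural progenitors, and desmin belongs to muscle. Lamins form the meshwork under the nuclear membrane, where the B-type lamins LMNB1 and LMNB2 are present in nearly all cells, while the products of LMNA (lamins A and C) are known to be scarce in embryonic stem cells and to increase on differentiation.

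The total count on genes was 21958386 to 24933430 per library. The 10 genes together took 0.341% to 0.541% of them, and the lowest count of any of the 10 in a library was 140. Genes of the mitochondrial genome took 16.3% to 28.3% of the counts, and in both groups replicate 3 had the highest share (28.3% in MC-F7, 27.9% in MT-F7). Replicate 3 was the lowest MC-F7 library for 9 of the 10 genes and the lowest MT-F7 library for 6 of them, and the part of the mitochondrial share in this was not tested. Of 6 markers of pluripotent cells 5 were in the count table and tested, and 4 of these fell in MT-F7, against 11.3% of all tested genes. The most abundant were POU5F1, with 1196 ± 329.5 CPM in MC-F7 and 522 ± 35.6 CPM in MT-F7, and DNMT3B, with 448 ± 37.2 and 195 ± 33.9 CPM (SD, n = 3). NANOG, named after its values were seen, changed most of the 5, with 43.5 ± 9.03 CPM in MC-F7 and 10.7 ± 1.23 CPM in MT-F7. Without MC-F7 replicate 2 or MT-F7 replicate 1 or 2, LIN28A was no longer among those that fell, which left 3. Both groups thus carried transcripts of markers of the labelled cell type, most of them at lower levels in MT-F7. Levels are given as CPM, the counts per 1000000 after TMM normalization, and log2 fold changes are MT-F7 over MC-F7.

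All 4 keratins were lower in MT-F7 and passed the test, VIM, DES and LMNA were higher and passed it, and NES, LMNB1 and LMNB2 did not pass. The test was edgeR's quasi-likelihood test with an adjusted p under 0.05 over all 13001 tested genes, of which 23.2% passed, 11.9% as higher and 11.3% as lower in MT-F7. Of the 10 intermediate filament genes 7 passed, 3 as higher and 4 as lower. The 3 libraries of one group all lay above those of the other in 9 of the 10 genes, against 40% of all tested genes. The 10 genes were chosen with earlier results of these data known, so these shares are a description and not a test. In the deposited TPM values, tested with limma on log2(TPM + 1), the split of all passing genes was 1547 higher to 820 lower in place of 1553 to 1463. There 6 of the 10 genes passed, KRT7, KRT8 and KRT18 as lower and DES, NES and LMNA as higher. VIM and KRT19 did not pass in that fit. With TPM rescaled to a sum of 1000000, an alternative chosen after seeing the data, the split was 1421 to 960 and NES no longer passed.

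**Figure D1:**
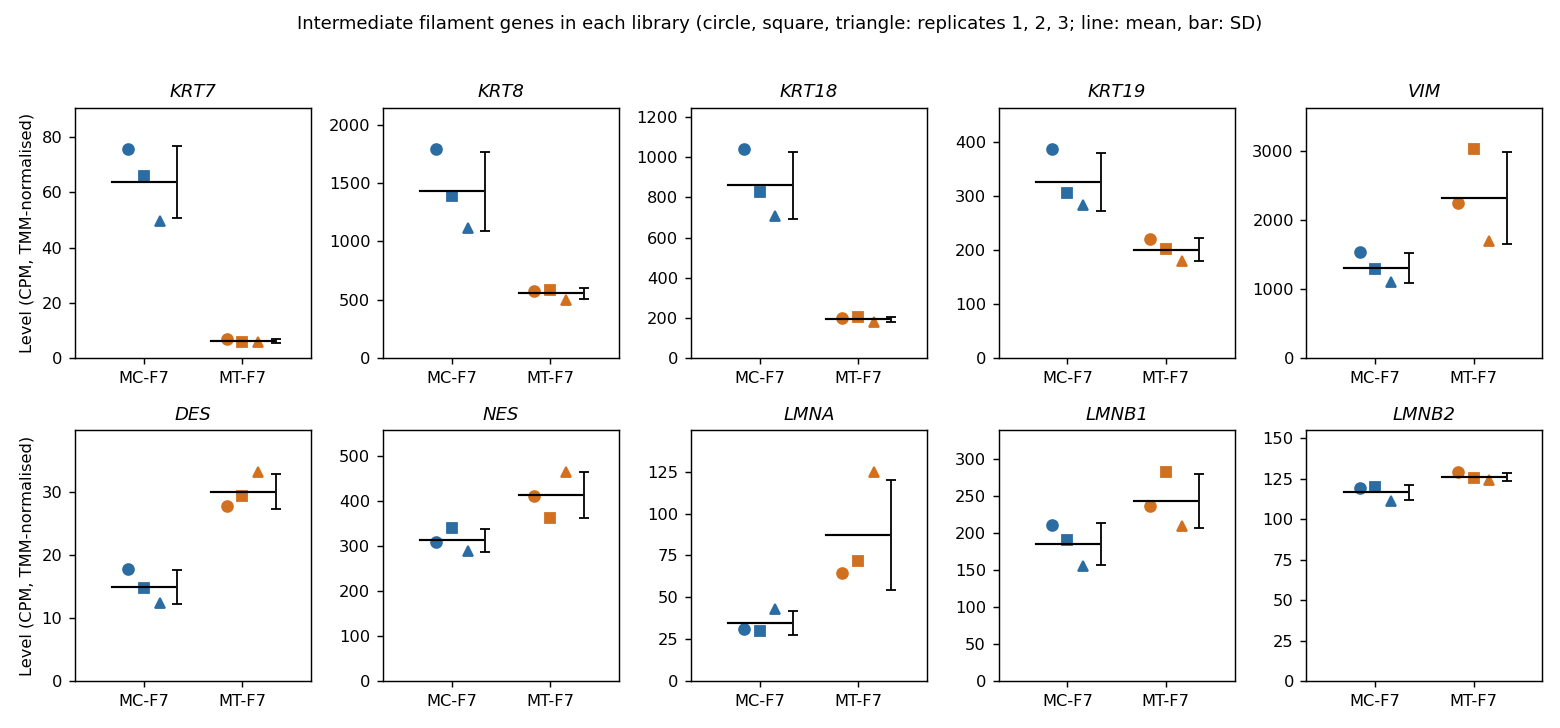
Level of each intermediate filament gene in each library, in CPM on linear axes that start at 0, with MC-F7 in blue and MT-F7 in orange (circles, squares and triangles are replicates 1, 2 and 3, the line is the mean and the bar the SD of 3 libraries). The keratins are lower in every MT-F7 library than in any MC-F7 library, and LMNB1 is the gene whose groups overlap.

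KRT7, a type II keratin of simple and glandular epithelia, showed the largest change of the 10 genes. Its levels were 75.6, 65.9 and 49.8 CPM in the MC-F7 libraries and 7.05, 5.83 and 5.94 CPM in the MT-F7 libraries. Every MT-F7 library lay far below the lowest MC-F7 library, and the MT-F7 level was 9.85% of the MC-F7 level (log2 fold change -3.34, SE 0.198, adjusted p = 6.4e-07). The gene next to KRT7 in the RefSeq annotation (ARS-UCD2.0) is KRT80, a keratin of differentiating epithelia, which also fell. KRT80 had 5.13, 6.59 and 6.45 CPM in MC-F7 and 1.59, 1.43 and 1.02 CPM in MT-F7 (log2 fold change -2.16, SE 0.274, adjusted p = 1.2e-04).

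KRT18, the type I partner of KRT8, had 1040 CPM in replicate 1, 829 CPM in replicate 2 and 710 CPM in replicate 3 of MC-F7. In MT-F7 the values were 198, 202 and 179 CPM. The groups did not overlap, and KRT18 fell 4.45-fold (log2 fold change -2.15, SE 0.179, adjusted p = 4.6e-06). KRT8 itself had 1790, 1387 and 1115 CPM in MC-F7 and 577, 587 and 499 CPM in MT-F7. It also fell without overlap, but by 2.58-fold (log2 fold change -1.37, SE 0.194, adjusted p = 2.7e-04). KRT8 and KRT18 are direct neighbours in the same annotation. Both genes are known for processed copies elsewhere in mammalian genomes, and how reads that match several places were counted is not given in the sources used here.

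KRT19, a small type I keratin that can also pair with KRT8, changed least among the keratins. Its levels were 386, 306 and 283 CPM in MC-F7 and 221, 201 and 179 CPM in MT-F7. The highest MT-F7 library was below the lowest MC-F7 library, and the MT-F7 level was 61.6% of that in MC-F7 (log2 fold change -0.70, SE 0.166, adjusted p = 0.0085). KRT19 passed in 15 of 18 alternatives and missed the threshold in the 3 limma fits of the TPM values (adjusted p = 0.059 to 0.091 in these, and 1.8e-04 to 0.091 over all 18). The other 3 keratins passed in all 18.

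The remaining keratins of the genome were nearly silent in both groups. Of 52 other keratin genes in the count table, 34 had 0 counts in all 6 libraries and 14 more were too low for the test, with at most 12 counts in a library. Only 4 were tested, among which KRT80 passed. KRT42, with raw counts of 12, 11 and 7 across MC-F7 against 1 in each MT-F7 library, reached the test without MC-F7 replicate 3 or any 1 of the MT-F7 libraries, where it passed as lower, and was named after its values were seen. KRT20, also named after its values were seen, went the other way. It had 0 counts in each MC-F7 library and 3, 4 and 3 in MT-F7. With all genes of at least 1 count tested, 0 of these keratins passed as higher. The epidermal keratin KRT5 had 1 count in 1 MT-F7 library and its partner KRT14 had 2 counts in 1 MT-F7 library, both under the 3 counts taken as the smallest detectable amount (0.12 to 0.137 CPM). The 4 keratins KRT7, KRT8, KRT18 and KRT19 thus held nearly all keratin counts, with 2158 to 3291 CPM in sum in MC-F7 and 863 to 1003 CPM in MT-F7, against 10.7 to 14.4 and 7.05 to 7.88 CPM for the 52 others together.

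Keratins such as KRT7, KRT8, KRT18 and KRT19 also mark the trophectoderm, the outer epithelium of the blastocyst. Its markers were close to absent in both groups. Of the 8 genes listed for it, CDX2 and HAND1 had 0 counts in all 6 libraries, 2 genes reached the test, and the sum of the 8 was 1.87 to 3.14 CPM in MC-F7 and 1.35 to 2.24 CPM in MT-F7. GATA2, the gene of the list that passed, had 1.11 ± 0.324 CPM in MC-F7 and 0.341 ± 0.183 CPM in MT-F7 (log2 fold change -1.70, SE 0.512, adjusted p = 0.029), a call that was lost without MC-F7 replicate 1 or 3 or MT-F7 replicate 1 or 2. TFAP2A had 0.877 ± 0.226 and 0.977 ± 0.127 CPM, with overlapping groups (adjusted p = 0.82). Since these are bulk samples, fewer cells that make keratins and less keratin RNA per cell cannot be told apart.

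Vimentin rose in MT-F7, with the widest spread of the 10 genes in CPM. Its levels were 1537, 1301 and 1103 CPM in MC-F7 and 2255, 3031 and 1693 CPM in MT-F7. The lowest MT-F7 library was above the highest MC-F7 library, and replicate 2 of MT-F7 stood above the rest (1.77-fold, log2 fold change 0.82, SE 0.222, adjusted p = 0.017). Without MT-F7 replicate 2 the log2 fold change was 0.59 (adjusted p = 0.092), and without MC-F7 replicate 2 it stayed at 0.82 but did not pass (adjusted p = 0.073). VIM also missed the threshold in the 3 limma fits of the TPM values (log2 fold change 0.88 to 0.93, adjusted p = 0.082 to 0.091). VIM passed in 13 of 18 alternatives, with adjusted p values from 5.2e-04 to 0.092, and was higher in MT-F7 in all 18.

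Desmin, the filament protein of muscle, was low but rose by 2.01-fold. It had 17.8, 14.7 and 12.4 CPM in MC-F7 and 27.7, 29.3 and 33.1 CPM in MT-F7. The groups were well apart (log2 fold change 1.0, SE 0.176, adjusted p = 0.0013), and DES passed in all 18 alternatives. Of the factors that define the muscle lineage, MYOG and MYF5 had 0 counts in all 6 libraries. MYOD1 and MYF6, named after their values were seen, were too low for the test. Raw counts of MYOD1 were 4, 0 and 1 across the MC-F7 libraries against 0 in each MT-F7 library. Those of MYF6 went the other way, from 0, 1 and 2 across MC-F7 to 3, 2 and 4 across MT-F7. Some of these values reached the detection limit of 3 counts. The study reports MYOD1 as significantly lower in MT-F7, which was not tested here. Of 9 muscle markers 5 were tested, 1 rose and 2 fell, where 11.9% of all tested genes rose and 11.3% fell. The 2 most abundant over the 6 libraries, ACTA1 and ACTC1, had 82.7 ± 15.0 and 72.8 ± 11.4 CPM in MC-F7 and 63.3 ± 6.33 and 90.2 ± 16.3 CPM in MT-F7 without passing. The marker that rose was TNNT1, a troponin of slow skeletal muscle named after its values were seen, with 23.1 ± 2.33 CPM in MC-F7 and 80.1 ± 10.9 CPM in MT-F7 (log2 fold change 1.79, SE 0.163, adjusted p = 8.5e-06). The 2 that fell, also named after their values were seen, were MYH3 and CKM. MYH3 had 5.32 ± 2.94 CPM in MC-F7 and 1.38 ± 0.359 CPM in MT-F7 (log2 fold change -1.95, SE 0.391, adjusted p = 0.0033). CKM had 1.49 ± 0.391 and 0.542 ± 0.238 CPM (log2 fold change -1.44, SE 0.449, adjusted p = 0.034). Those that fell were 1 without MC-F7 replicate 1 or 2 or MT-F7 replicate 1 or 3, and 3 without MC-F7 replicate 3. The sum of the 9 was 161 to 211 CPM in MC-F7 and 218 to 260 CPM in MT-F7, and its part in the DES difference was not tested.

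Nestin, a type IV protein of neural progenitors, had 309, 339 and 289 CPM in MC-F7 and 411, 362 and 464 CPM in MT-F7. Every MT-F7 library was above every MC-F7 library, but the difference of 1.32-fold did not pass (log2 fold change 0.40, SE 0.156, adjusted p = 0.083). The study, which gives a P value under 0.05 as its RNA-seq cutoff, reports NES as significantly higher in MT-F7. In edgeR's quasi-likelihood test used here, p was 0.024 before adjustment, so the 2 statements rest on unlike thresholds or tests. NES passed in 4 of 18 alternatives, among them the Wald test of DESeq2 (adjusted p = 0.045), and the adjusted p ran from 0.030 to 0.19 over the 18. It passed in 0 of the 6 fits without a single library. Of 8 neural markers, 7 were in the count table and 3 were tested, of which 2 rose and 1 did not pass. Over all tested genes 11.9% rose. The 2 most abundant were TUBB3, with 202 ± 16.7 CPM in MC-F7 and 174 ± 13.2 CPM in MT-F7 (adjusted p = 0.31), and the radial glia gene FABP7, which rose from 79.4 ± 14.7 to 142 ± 22.3 CPM (log2 fold change 0.84, SE 0.180, adjusted p = 0.0048). The largest change was that of PAX6, a transcription factor of neural progenitors named after its values were seen, which rose from 2.63 ± 0.259 to 19.9 ± 0.591 CPM (log2 fold change 2.92, SE 0.188, adjusted p = 7.7e-07) and passed in all 18 alternatives. HES5 and DCX were too low for the test, with at most 19 and 6 counts in a library, and were above the MC-F7 libraries in all 3 MT-F7 libraries. The list summed to 250 to 310 CPM in MC-F7 and 306 to 369 CPM in MT-F7, and its part in the NES values was not tested.

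LMNA rose more than any of the other 9 genes. It had 31.3, 29.6 and 43.0 CPM in MC-F7 and 64.6, 71.8 and 125 CPM in MT-F7. Replicate 3 was the highest library in both groups, and the groups did not overlap (2.51-fold, log2 fold change 1.33, SE 0.242, adjusted p = 0.0017). Without both replicates 3 the log2 fold change was 1.18 (adjusted p = 3.2e-06), and LMNA passed in all 18 alternatives, with adjusted p values up to 0.018.

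The B-type lamins did not pass. LMNB1 had 211, 190 and 155 CPM in MC-F7 and 237, 282 and 210 CPM in MT-F7, and these ranges overlapped by a margin of under 1 CPM (log2 fold change 0.39, SE 0.170, adjusted p = 0.12). LMNB1 passed in 2 of 18 alternatives, with adjusted p values from 0.023 to 0.37. LMNB2 was the steadiest of the 10 genes, with 119, 120 and 111 CPM in MC-F7 and 129, 126 and 124 CPM in MT-F7. Its libraries did not overlap, yet the difference of 1.08-fold was less than its standard error (log2 fold change 0.11, SE 0.137, adjusted p = 0.59).

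Fibroblasts, the feeder cell type, are also rich in vimentin and lamin A. Of 14 fibroblast markers 13 were tested, of which 5 rose, 1 fell and 7 did not pass. Over all tested genes 11.9% rose and 11.3% fell. The median log2 fold change of the markers was 0.36, against -0.0026 over all tested genes. The most abundant over the 6 libraries was COL1A1, with 205 ± 31.4 CPM in MC-F7 and 268 ± 15.6 CPM in MT-F7 (adjusted p = 0.094). FBLN1, a secreted matrix protein, rose from 108 ± 21.0 to 327 ± 37.5 CPM (log2 fold change 1.60, SE 0.179, adjusted p = 4.5e-05). ACTA2, the smooth muscle actin of contractile fibroblasts, named after its values were seen, rose from 85.3 ± 16.4 to 309 ± 71.2 CPM (log2 fold change 1.86, SE 0.201, adjusted p = 3.5e-05), so that FBLN1 and ACTA2 were both above COL1A1 in MT-F7. The marker that fell was TWIST2, also named after its values were seen. It had 1.81 ± 0.312 CPM in MC-F7 and 0.406 ± 0.291 CPM in MT-F7 (log2 fold change -2.15, SE 0.534, adjusted p = 0.011). The 14 genes summed to 378 to 503 CPM in MC-F7 and 885 to 1109 CPM in MT-F7. None of the 14 was at 0 in all libraries, and the part of fibroblast-type transcripts in the changes of VIM, DES and LMNA was not tested. Mouse reads that match a bovine gene cannot be recognised in gene counts. The study reports that a larger share of reads aligned to the bovine genome in MT-F7 than in MC-F7. It proposes from this that MT-F7 held less feeder contamination, which was not tested here. From higher transcripts of matrix and growth factor genes it also proposes that some MT-F7 cells became feeder-like cells. That was not tested here either.

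**Figure D2:**
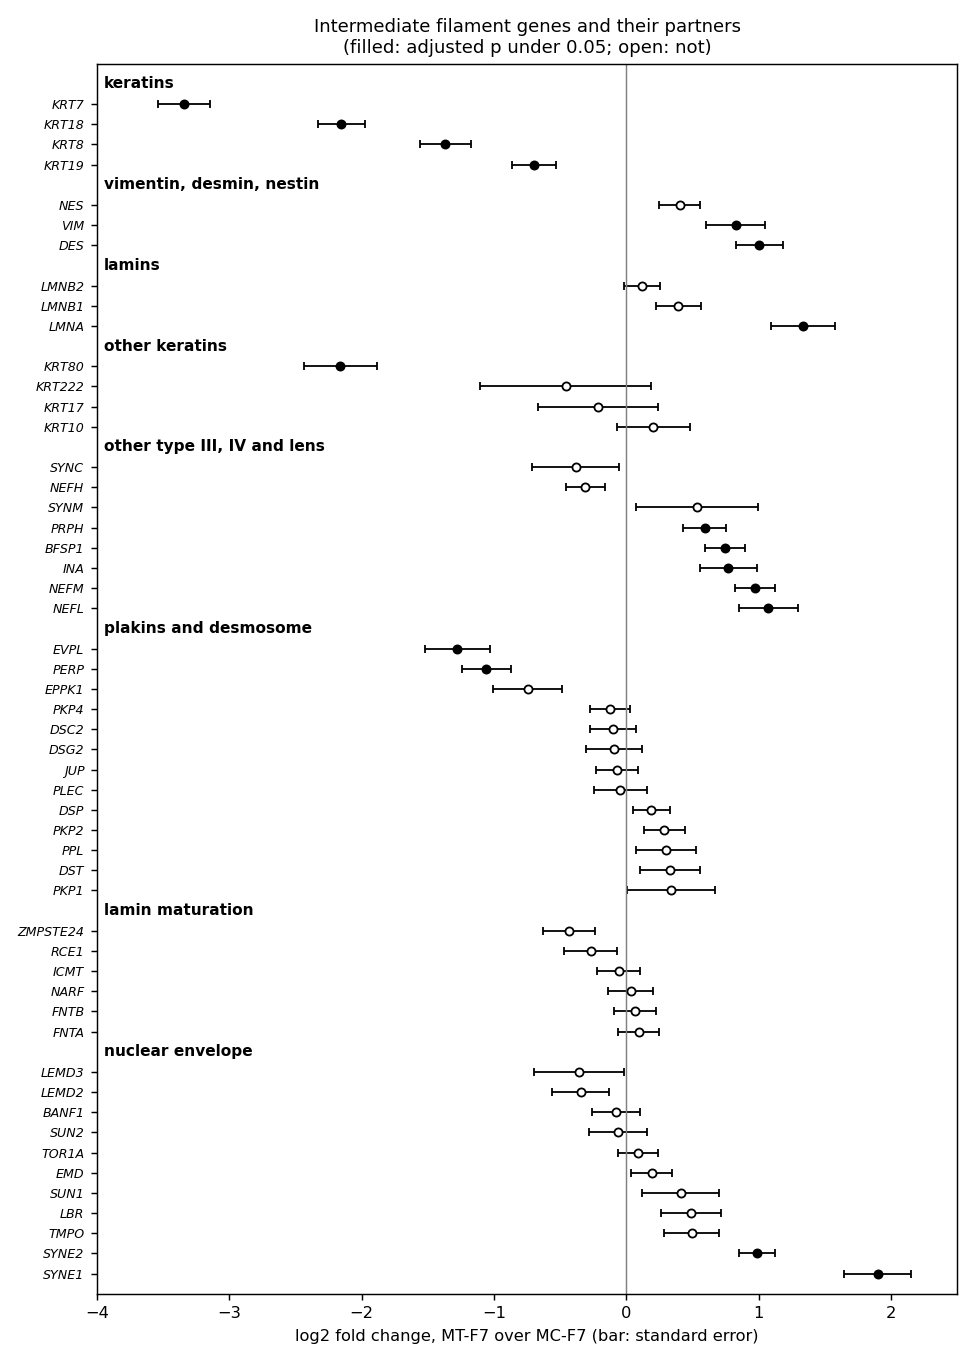
Log2 fold change of MT-F7 over MC-F7 with its standard error for the 10 intermediate filament genes and the tested genes of 5 partner lists, from edgeR's quasi-likelihood fit of 3 against 3 libraries. Filled points passed at an adjusted p under 0.05, and KRT7, KRT8, KRT18, KRT19 and KRT80 lie to the left of 0 while the passing genes of the vimentin, neurofilament and lamin classes lie to the right.

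The vimentin and neurofilament classes have further members. Of 10 further type III, type IV and lens filament genes 8 were tested, 5 rose and the other 3 did not pass, against 11.9% of all tested genes that rose. Their median log2 fold change was 0.67. The 5 were the neurofilament light and medium chains NEFL and NEFM, alpha-internexin (INA), the lens filament protein BFSP1 and peripherin (PRPH), the last of these named after its value was seen. NEFM, the medium chain, had 35.2, 34.8 and 32.4 CPM in MC-F7 and 69.8, 57.8 and 72.9 CPM in MT-F7 (log2 fold change 0.97, SE 0.152, adjusted p = 6.0e-04). NEFL rose from 6.59 ± 0.841 to 13.8 ± 3.45 CPM (log2 fold change 1.07, SE 0.222, adjusted p = 0.0040), and BFSP1 from 26.2 ± 1.89 to 43.9 ± 2.82 CPM (0.74, SE 0.149, adjusted p = 0.0033). INA rose from 8.28 ± 1.92 to 14.1 ± 2.60 CPM (0.77, SE 0.219, adjusted p = 0.022), and the calls of INA and PRPH were lost without MC-F7 replicate 2 or 3 or MT-F7 replicate 1 or 2, which left 3 of the 5. The heavy neurofilament chain NEFH, named after its values were seen, was lower in every MT-F7 library than in any MC-F7 library, with 31.5 ± 1.38 CPM in MC-F7 and 25.4 ± 0.140 CPM in MT-F7, and did not pass (log2 fold change -0.31, SE 0.145, adjusted p = 0.14). GFAP, the filament of astrocytes, had 2 to 11 counts per library and was not tested.

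Plakins and desmosome proteins anchor intermediate filaments to the cell surface and to each other. Among 13 tested genes of this kind 2 fell and 11 did not pass, a share near the 11.3% of all tested genes that fell, with a median log2 fold change of -0.073. Without MC-F7 replicate 1 or MT-F7 replicate 3 there were 3 that fell, with epiplakin (EPPK1), named after its value was seen, added. Envoplakin (EVPL), a plakin of stratified epithelia, had 13.8, 15.3 and 19.6 CPM in MC-F7 and 6.18, 4.67 and 9.26 CPM in MT-F7 (log2 fold change -1.28, SE 0.248, adjusted p = 0.0027). PERP, a membrane protein of desmosomes, had 110.3, 109 and 91.3 CPM in MC-F7 and 60.1, 51.8 and 37.1 CPM in MT-F7 (log2 fold change -1.06, SE 0.185, adjusted p = 0.0013). Both genes were separated between the groups. Those that did not pass include desmoplakin and plakoglobin, and MACF1 was not in the count table under that symbol.

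Of the genes that act around the lamins, none of the 6 genes of lamin maturation, such as the farnesyltransferase subunits and the protease ZMPSTE24, passed, with log2 fold changes from -0.43 to 0.091. Only ZMPSTE24 was under 0.05 before adjustment, and DESeq2 called 0 of the 6. Without MT-F7 replicate 3 the CAAX protease RCE1 passed (log2 fold change -0.51, adjusted p = 0.045). Of 11 tested genes of the nuclear envelope 2 rose and 9 did not pass, against 11.9% of all tested genes that rose. These 2 were SYNE1 and SYNE2, which encode nesprins that span the outer nuclear membrane and tie it to the cytoskeleton. SYNE1 had 1.73, 3.40 and 2.71 CPM in MC-F7 and 9.68, 9.46 and 10.1 CPM in MT-F7 (log2 fold change 1.90, SE 0.253, adjusted p = 1.8e-04). SYNE2 had 79.8, 84.2 and 84.3 CPM in MC-F7 and 165, 163 and 163 CPM in MT-F7, with little spread in either group (log2 fold change 0.99, SE 0.137, adjusted p = 2.4e-04). Without MT-F7 replicate 3, TMPO also rose and LEMD2 fell, so that 3 of the list rose and 1 fell. RCE1, TMPO and LEMD2 were named after their values were seen. TOR1AIP1 was not in the count table under that symbol.

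To compare levels between genes, the deposited TPM values were used, which take gene length into account. Their columns summed to 154763 to 164394 and not to 1000000, so that a value has meaning only relative to others of the same library. In MC-F7 the order of the mean TPM was VIM (147), KRT8 (115), KRT18 (94.6), KRT19 (42.9), LMNB1 (12.2), NES (10.9), KRT7 (7.72), LMNB2 (4.43), LMNA (2.44) and DES (1.33). This order held within each of the 3 libraries, but the ranges of VIM and KRT8, of KRT8 and KRT18, and of LMNB1 and NES overlapped between libraries. In MT-F7 VIM stayed first at 287 TPM and was followed by KRT8 (48.9), KRT19 (29.0), KRT18 (23.3), LMNB1 (17.5), NES (15.6), LMNA (6.69), LMNB2 (5.24), DES (2.91) and KRT7 (0.829). KRT19 was above KRT18, and KRT18 above LMNB1, in all 3 MT-F7 libraries although the ranges of both pairs overlapped. LMNA was above LMNB2 in 2 of 3, so their order was within the spread, as was that of LMNB1 and NES.

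Keratins made up the larger share of the cytoplasmic filament transcripts in MC-F7 and the smaller one in MT-F7. Of the summed TPM of the 7 cytoplasmic genes, the 4 keratins held 63.3%, 61.3% and 61.1% in the MC-F7 libraries and 26.7%, 21.4% and 28.7% in the MT-F7 libraries. VIM alone held 34.2%, 35.5% and 35.7% in MC-F7, and in MT-F7 it held 68.7%, 75.2% and 64.7%. The sum itself ran from 325 to 500.1 TPM in MC-F7 and from 303 to 514 TPM in MT-F7. Library size remains in these sums, so they do not compare the groups. These shares were chosen after the values were seen and are given with no test. LMNA held 10.8%, 11.0% and 17.5% of the summed lamin TPM in MC-F7, and in MT-F7 it held 18.3%, 18.0% and 32.4%.

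**Figure D3:**
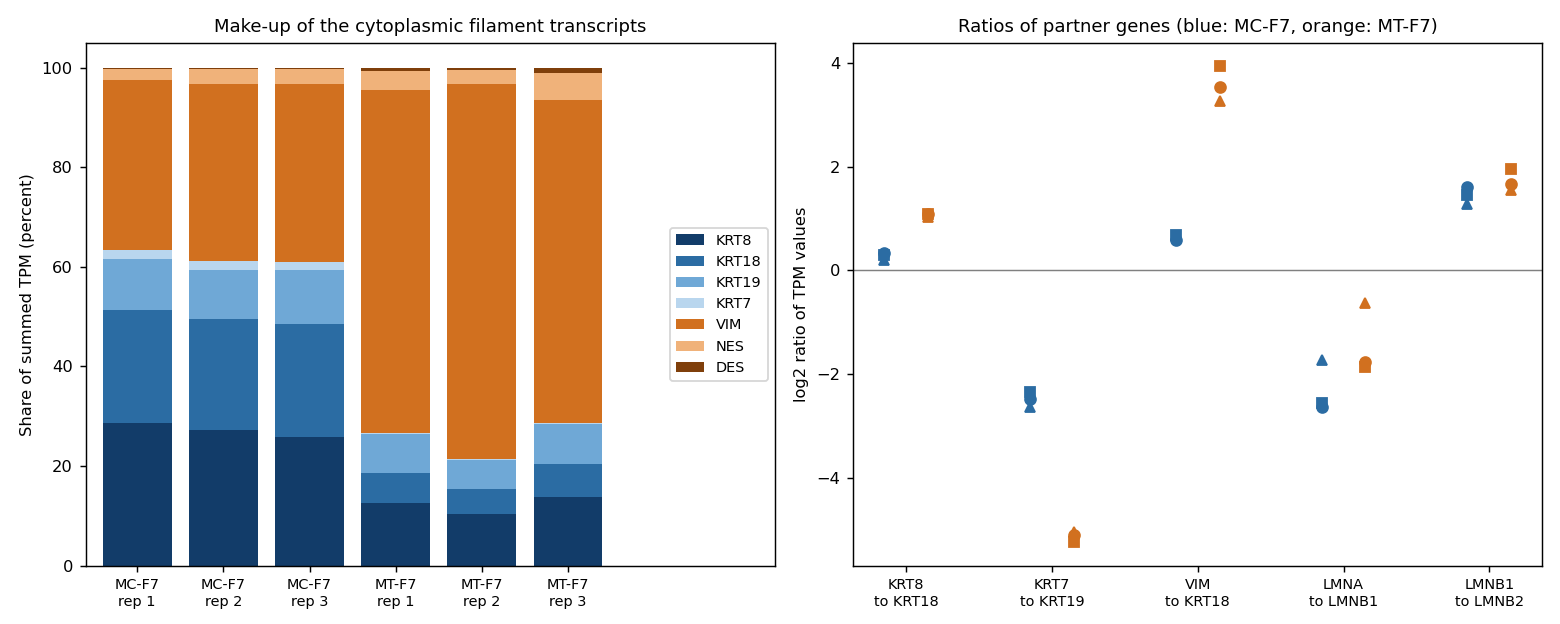
Left, the share of each cytoplasmic filament gene in their summed TPM, in percent, for each library (bars from 0). Right, log2 ratios of TPM between partner genes in each library, with MC-F7 in blue and MT-F7 in orange and symbols for replicates 1, 2 and 3 as circles, squares and triangles. Keratins hold 61.1% to 63.3% of the sum in MC-F7 and 21.4% to 28.7% in MT-F7.

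Within a library the ratio of 2 genes does not depend on how the library is scaled, and 5 such ratios were compared. KRT8 to KRT18, the partners of 1 filament, stood at 1.26, 1.22 and 1.15 in MC-F7, and in MT-F7 it stood at 2.13, 2.12 and 2.04. The pair thus went from near equal levels to an excess of KRT8 over KRT18, with a log2 difference of 0.79 (SDs 0.0675 and 0.0345). This ratio leaves out KRT19, which can also pair with KRT8. In MC-F7 the mean TPM was 115 for KRT8, 94.6 for KRT18 and 42.9 for KRT19. In MT-F7 it was 48.9, 23.3 and 29.0, so KRT8 was not compared with all its type I partners here. KRT7 to KRT19 went from 0.179, 0.197 and 0.160 to 0.0292, 0.0265 and 0.0304, and VIM to KRT18 from 1.51, 1.60 and 1.58 to 11.6, 15.3 and 9.63. These 3 ratios did not overlap between the groups, and each reached the smallest two-sided p that an exact permutation test of 3 against 3 libraries allows (p = 0.1, adjusted over 5 ratios 0.17), so the design could not pass a threshold of 0.05.

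The ratios among lamins were less clear. LMNA to LMNB1 was 0.161, 0.169 and 0.300 in MC-F7, and in MT-F7 it was 0.296, 0.276 and 0.644. Replicate 3 of MC-F7 lay among the MT-F7 libraries (log2 difference 0.90, SDs 0.500 and 0.680, exact permutation p = 0.3). LMNB1 to LMNB2 was 3.06, 2.74 and 2.41 in MC-F7, and in MT-F7 it was 3.17, 3.89 and 2.92, also with overlap (log2 difference 0.28, exact permutation p = 0.2). After adjustment over the 5 ratios these became 0.3 and 0.25.

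Among the 11931 tested genes whose mean CPM reached 1, those with the profile most like KRT8 over the 6 libraries were AKR1A1, PDLIM1 and EGLN1. Their root mean square differences from KRT8, on log2(CPM + 1) centred over the libraries, were 0.0403, 0.0496 and 0.0708, while KRT19 was at 0.339 and KRT18 at 0.397. Most like VIM were CETN4 (0.0531), COP1 (0.0847) and NCALD (0.0848), and the nearest intermediate filament gene was LMNB1 (0.238). None of the 10 genes was therefore the closest match of KRT8 or VIM. The pseudocount of 1 CPM was settled after the values were seen, and with 0.5 CPM the same 3 genes came out for KRT8 and the same 3 for VIM. With 6 libraries in 2 groups, such likeness is set mainly by the size of the change between the groups and is given as a description.

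**Figure D4:**
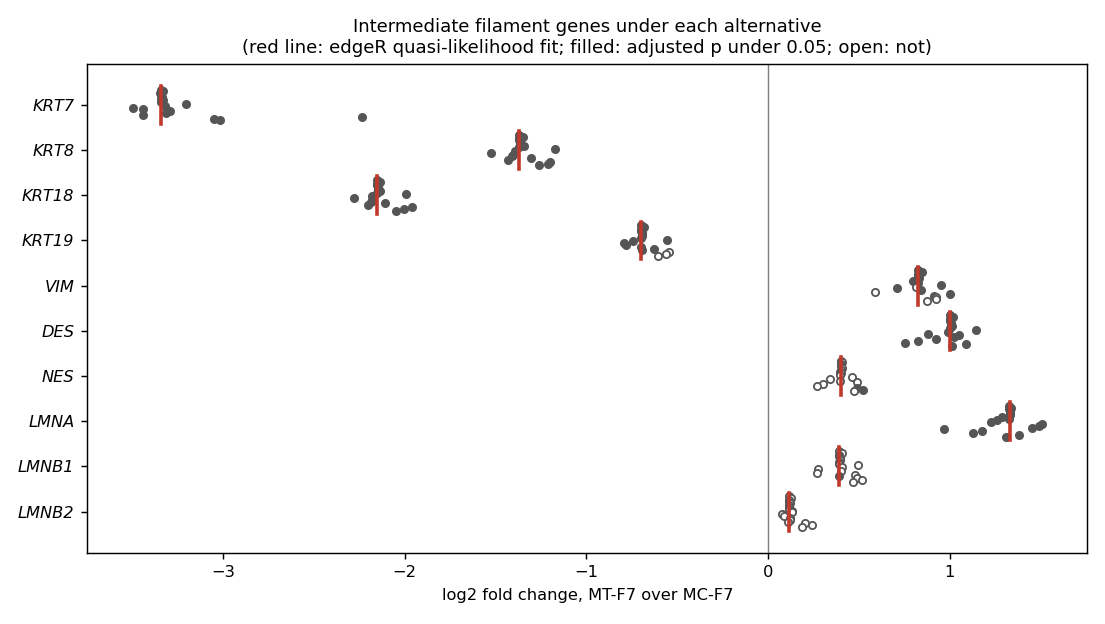
Log2 fold change of each intermediate filament gene under 18 alternatives (points, filled where the adjusted p was under 0.05) beside the value of the edgeR quasi-likelihood fit (red line). Each of the 10 genes keeps its side of 0 in all 18, and the open points lie with KRT19, VIM, NES, LMNB1 and LMNB2.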

How the data were processed

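After read filtering, the authors mapped reads to Bos taurus (Ensembl) with HISAT2 2.0.5, assigned them to genes with featureCounts 1.5.0-p3 and deposited raw counts by Entrez gene. They also deposited values that they call TPM, by Ensembl gene. The genome build is not given in the sources used here. For all 10 genes the ratio of TPM to count was the same in all libraries within 1%, so library size remains in these values. Of 19163 Entrez genes, 19074 had a symbol in the RefSeq table (ARS-UCD2.0).

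Counts were filtered by filterByExpr (minimum count 10, minimum total 15), normalized by TMM and tested with edgeR 4.0.16 (R 4.3.3, quasi-likelihood, two-sided, Benjamini-Hochberg over 13001 genes), without a block. The steps were tested on simulated data. Alternatives used DESeq2 1.42.0 and limma 3.58.1, and ratios used scipy 1.17.1. The labels name no sequencing batch. Named were all 10 genes, up to 4 passing genes of each partner list by size of change, the 2 most abundant markers of each cell type, and the 3 genes most like KRT8 and VIM. The 10 genes and the lists were chosen with earlier results of these data known. No sequences are shown. Detection was set at 3 counts, a limit that covers counting error only.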

Additional observations from a re-analysis of the deposited data

How the results depend on the processing

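Each of the 10 genes kept its direction in all 18 alternatives, and 5 to 9 of them passed. KRT7, KRT8, KRT18, DES and LMNA passed in every one. The replicate number as a block gave 5 intermediate filament genes higher in MT-F7 in place of 3, because NES (adjusted p = 0.030) and LMNB1 (adjusted p = 0.023) then passed, and it raised the count over all genes from 3016 to 4674. Deviations of libraries with the same number correlated at 0.134, 0.0445 and 0.417 for replicates 1, 2 and 3. For replicate 3 of each group the closest library of the other group was its replicate 3. With replicates 1 and 2 of the other group, the correlations of replicate 3 ran from -0.323 to -0.141. MC-F7 replicate 1 was most like MT-F7 replicate 2 instead (0.279). What the libraries of replicate 3 share was not tested, and the labels give no pairing beyond the number. Without MC-F7 replicate 2 the count over all genes was 1914. Without 1 library, 6 to 7 of the 10 genes passed, and of the partner genes 5 to 8 were called higher and 3 to 7 lower, against 7 and 3. Partner genes called lower were 5 with all genes of at least 1 count, 5 with the block and 7 without both replicates 3, an alternative chosen after seeing the data, as was the rescaling of TPM to 1000000 (5 of the 10 genes passed). The cause of these shifts was not tested. TFAP2A ranged from -0.018 to 0.35 on the log2 scale without 1 library, and was below 0 without MC-F7 replicate 3. The log2 differences of the 5 ratios moved by less than the larger of the SDs of the 2 groups with raw counts, with TPM + 0.1 and without each library, and some moved by more than the smaller SD, such as KRT7 to KRT19 with TPM + 0.1 (-2.49 in place of -2.64). Of the 48 keratins that were not tested, 14 had counts in at least 1 library, and levels under 3 counts are not detectable at this depth.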
